A study of Mus musculus with 12 samples.

Results

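Opa1, Mfn1 and Agk encode proteins that shape mitochondrial membranes, and their transcripts were compared between mouse oocytes labelled aged and young on two-colour arrays. The 3 genes were chosen by measured values of this same comparison, in which their ratios of aged over young had been seen to lie below 0, so their values are given as a description with no test. They are 3 of 3089 genes that had a probe of their own, and they were measured by 4 of the 22575 probes, 2 for Opa1, 1 for Mfn1 and 1 for Agk, each with that gene as the only symbol in the platform annotation. Another 6 probes list one of the 3 genes together with another gene and are described apart. All 10 probes had a value on all 12 arrays.

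Every array held total RNA of aged oocytes in one dye and of young oocytes in the other. The aged RNAs numbered 1, 2 and 3 were set against the young RNAs numbered 1, 5 and 2, and these are called pairs 1, 2 and 3. Every pair took 4 arrays (2 labellings, each in both dye orientations), which together count as 1 replicate. The labels say only aged and young. They name no strain, age or oocyte stage and leave it unsaid if different animals gave each RNA, so p-values reflect pair-to-pair variation that may be only technical.

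Mitochondria fuse and divide continually, and an oocyte passes its mitochondria on to the embryo. Mfn1, a mitofusin, is a GTPase of the outer membrane that joins the outer membranes of neighbouring mitochondria. Opa1, a dynamin-like GTPase, then joins the inner membranes and also keeps the cristae in shape. Agk, acylglycerol kinase, phosphorylates diacylglycerol and monoacylglycerol to phosphatidic and lysophosphatidic acid, and in human cells it is also a subunit of the TIM22 complex, which inserts carrier proteins into the inner membrane.

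The deposited values were log10 ratios of unstated direction. They were read as Cy5 over Cy3, given the sign of aged over young from the dye that carried the aged RNA, converted to log2 and centred on the median of each array; a negative value means less in aged oocytes relative to that median. The direction is likely rather than settled: if the values were Cy3 over Cy5, every ratio of aged over young below would change sign. Ratios carry no level, so the genes cannot be ranked by abundance and the oocyte label cannot be checked by marker levels, and fewer or smaller oocytes and less RNA per oocyte cannot be told apart. Pair 1 stood apart, with array medians from -0.316 to 0.0501 as deposited (log10) against -0.0050 to 0.0021 in the other pairs, and it held the array of widest spread (SD 1.23 on the log2 scale, labelling 2, aged RNA in Cy3). Without pair 1 the means were -1.16 for Agk, -0.41 for Opa1 and -0.31 for Mfn1.

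Agk had the lowest ratio of the 3 genes, at -1.20 ± 0.27 (SD, n = 3 pairs), which is 43.4% of the amount in young oocytes under the Cy5 over Cy3 reading. The share would be 230% if the values were Cy3 over Cy5 and 116% if they already were aged over young. With aged RNA in Cy5 its probe (10108) lay at -1.43 and -0.94 in pair 1, -1.34 and -0.96 in pair 2, and -0.77 and -0.47 in pair 3, labelling 1 before labelling 2. With aged RNA in Cy3 it lay at -0.20 and -2.55, at -1.46 and -1.93, and at -1.14 and -1.25 in the same order of pairs. All 12 arrays were thus below 0, which held for 0.862% of the 21569 probes with 12 values. The arrays of pair 1 lay farthest apart, with an SD of 0.98 over its 4 arrays against 0.40 in pair 2 and 0.36 in pair 3; the medians over all probes were 0.61, 0.34 and 0.40. The value of -2.55 came from the array of widest spread, and without that array Agk averaged -1.01 ± 0.37. As deposited, the sign of the Agk value was opposite between the 2 dye orientations in 6 of 6 swaps, as it was for 4.26% of probes. As Agk was chosen on this contrast, nothing is read from either share.

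Among the 3089 named genes Agk had the third lowest mean, between Hspa8 at -1.36 and Zp2 at -1.18; read as Cy3 over Cy5, its mean would be the third highest. Counted from the lowest, it stood at place 34 in pair 1, place 4 in pair 2 and place 39 in pair 3.

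Opa1 averaged -0.44 ± 0.06 (SD, n = 3 pairs), or 73.7% of the amount in young oocytes (136% if Cy3 over Cy5, 102% if already aged over young), with -0.50, -0.44 and -0.38 in pairs 1, 2 and 3. The mean of its probes was below 0 on 12 of 12 arrays, between -1.0 and -0.03 with a median of -0.37. Both dye orientations gave much the same value, -0.42 with aged RNA in Cy5 and -0.46 with aged RNA in Cy3. In the order of named genes it stood at place 188, between Ubn1 at -0.44 and Tfb1m at -0.44.

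The probes of Opa1 differed more between pairs than their mean did. Probe 11427 lay at -0.64, -0.74 and -0.43 in the 3 pairs, a mean of -0.60 ± 0.16, and probe 19360 at -0.35, -0.14 and -0.33, a mean of -0.28 ± 0.12 (SD, n = 3 pairs each). Pair 2 was the lowest of the 3 for the first probe and the highest for the second. Each probe is annotated with 10 transcripts. It was not compared if these are the same ones. Across the 12 arrays the probes correlated at r = 0.20, a description over arrays that share their RNAs in fours. Each was below 0 on all 12 arrays. Probe 11427 ran from -1.48 to -0.02 over the arrays, and the 2 extremes were the Cy3 arrays of pair 1. Probe 19360 ran from -0.65 to -0.01, with 4 arrays between -0.08 and -0.01. As deposited, each of these probes had opposite signs in 5 of 6 dye swaps.

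Mfn1 averaged -0.46 ± 0.27 (SD, n = 3 pairs), or 72.9% of the amount in young oocytes (137% if Cy3 over Cy5, 82.99% if already aged over young), with -0.74, -0.42 and -0.21 in pairs 1, 2 and 3. It stood at place 175 among the named genes, between Dennd11 at -0.46 and Prom1 at -0.46. Its values, like those of Agk (-0.98 with aged RNA in Cy5, -1.42 in Cy3), differed by dye orientation more than those of Opa1. This is a description with no test. With aged RNA in Cy5 the single probe (9297) was below 0 on 6 of 6 arrays, at -0.74 and -0.25 in pair 1, -1.24 and -0.65 in pair 2, and -0.76 and -0.72 in pair 3. With aged RNA in Cy3 it was below 0 on 2 of 6 arrays: it lay at -0.43 and -1.56 in pair 1, but at 0.19 and 0.03 in pair 2 and at 0.40 and 0.24 in pair 3. The mean over pairs was -0.73 with aged RNA in Cy5 and -0.19 ± 0.71 with aged RNA in Cy3. As deposited, only 2 of 6 swaps had opposite signs, both in pair 1, and all 8 values of pairs 2 and 3 were below 0.

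All 3 genes were below 0 in all 3 pairs, a pattern shared by 16.3% of named genes; as the genes were chosen on this contrast, nothing is read from that count. Over all rows of the table, limma found 0 of 21370 (0%) at an adjusted p under 0.05, and 1402 at an unadjusted p under 0.05, of which 807 (3.78% of rows) lay lower with age and 595 higher. When arrays were not centred, 1059 lay lower and 183 higher at an unadjusted p under 0.05. At an adjusted p under 0.05, 13 rows passed in limma, 12 of them higher and 1 lower.

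**Figure D1:**
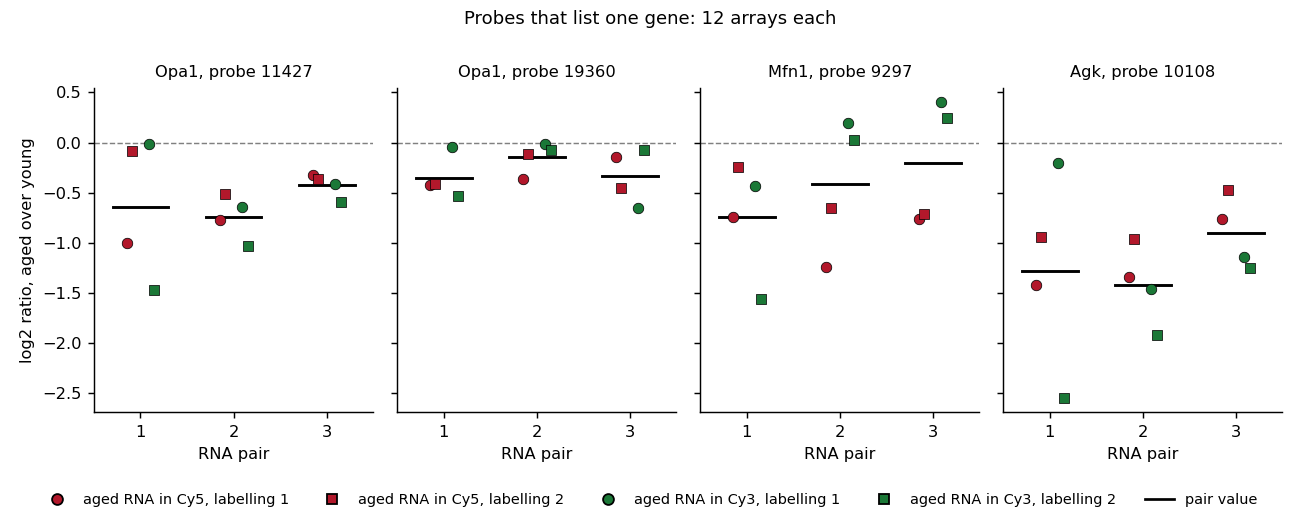
Log2 ratio of aged over young (vertical axis) by RNA pair (horizontal axis) for the 4 probes that list Opa1, Mfn1 or Agk alone; each point is 1 array, coloured by the dye of the aged RNA and shaped by labelling, and bars are pair values. All points of the Opa1 and Agk probes lie below 0, while the Cy3 points of Mfn1 in pairs 2 and 3 lie above 0.

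If the deposited values are dye ratios, the part of a probe's value that keeps its sign when the dyes are swapped does not contain the aged over young difference, and it was tested on that reading. If the values already were aged over young, this part would itself be that difference, and its independence from the choice of genes would be lost. It is given as log2 of Cy5 over Cy3. For Mfn1 this part was 0.25 in pair 1 and -0.53 in both other pairs, a mean of -0.27 ± 0.45 (SD, n = 3 pairs; limma over all probes, adjusted p = 0.386). In pairs 2 and 3 it was thus larger in size than the aged over young part of -0.42 and -0.21. For Agk it was 0.09, 0.27 and 0.29 (adjusted p = 0.283 in limma), against aged over young parts between -1.42 and -0.91. For the Opa1 probes it stayed small, between 0.08 and 0.10 for probe 11427 (adjusted p = 0.617 in limma) and between -0.10 and 0.03 for probe 19360 (adjusted p = 0.822 in limma).

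None of the 10 probes passed this test, nor did any of the 22543 probes tested (0%), although 5885 of them, and 0 of the 10, had an unadjusted p under 0.05. Without pair 1 limma passed 5062 of 22554 probes, and the Mfn1 probe was then the 1 of the 10 member probes that passed, at -0.53 (adjusted p = 0.0289 on the remaining 2 pairs).

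**Figure D2:**
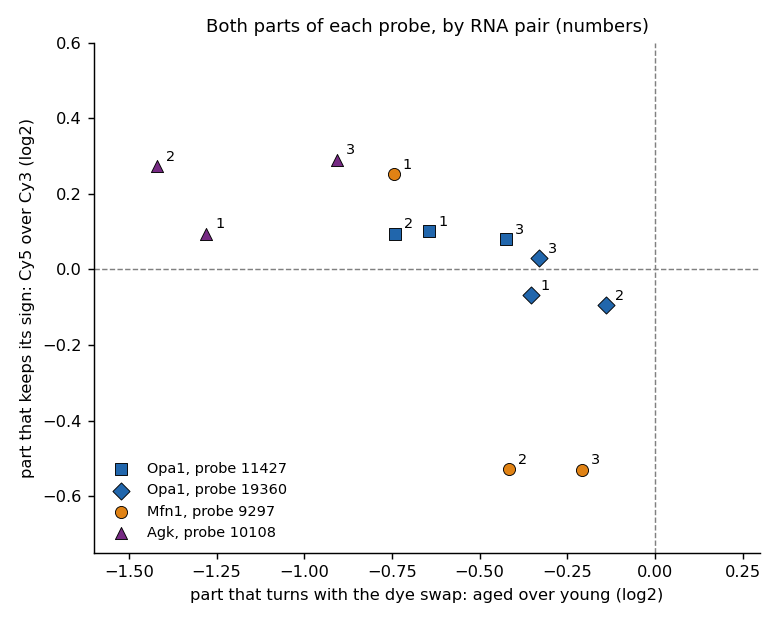
Part of each value that turns with the dye swap (horizontal axis, log2 of aged over young) against the part that keeps its sign (vertical axis, log2 of Cy5 over Cy3) for the 4 single-gene probes; numbers give the RNA pair. The Mfn1 points of pairs 2 and 3 lie near -0.53 on the vertical axis, apart from all other points.

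The 6 probes that list a second gene gave mostly smaller ratios. Each of them shares 1 annotated transcript with the single-gene probes of its member, and in RefSeq the second gene lies on the same chromosome, from the next coding gene (Hes1 beside Opa1) to 14 coding genes away (Dlg1). Which transcript such a probe measures is not settled by the annotation. The probe of Opa1 and Dlg1 (18973) lay at -0.65, -0.43 and -0.34 in the 3 pairs, a mean of -0.47 ± 0.16, and was below 0 on 11 of 12 arrays. This is within the range of the single-gene probes of Opa1. The probes of Opa1 with Fam43a (4049) and with Hes1 (5342) averaged -0.04 ± 0.20 and 0.08 ± 0.27, and their pair values lay on both sides of 0.

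For Mfn1, the probe listed with Actl6a (9375) averaged -0.25 ± 0.24, with -0.51, -0.03 and -0.21 in the 3 pairs. Its split by dye ran the other way from the single-gene probe, with -0.09 with aged RNA in Cy5 and -0.41 with aged RNA in Cy3. The probe listed with Ndufb5 (9806) averaged -0.09 ± 0.29 and was above 0 in pair 2. For Agk, the probe listed with Ndufb2 (21558) averaged -0.10 ± 0.34 and lay at -0.37, -0.21 and 0.28 in the 3 pairs (SD, n = 3 pairs for each). It was below 0 on 6 of 12 arrays, against 12 of 12 for the single-gene probe. With these probes counted in, the gene means were -0.26 for Opa1, -0.27 for Mfn1 and -0.65 for Agk.

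**Figure D3:**
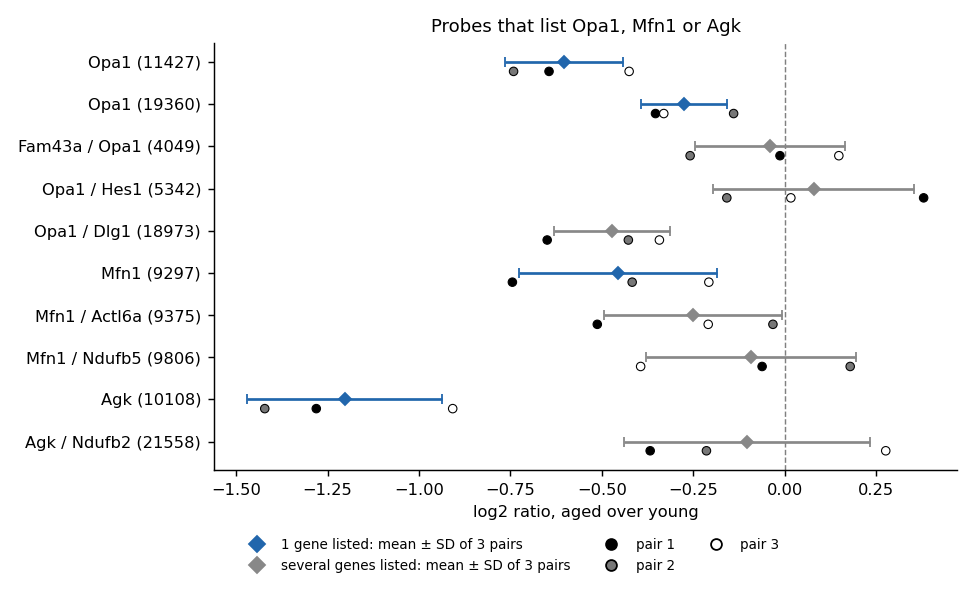
Log2 ratio of aged over young (horizontal axis) for the 10 probes that list Opa1, Mfn1 or Agk (vertical axis, probe number in brackets); diamonds with bars are the mean ± SD of 3 pairs and circles the pair values. The single-gene probe of Agk lies at -1.20, apart from its several-gene probe at -0.10, and the probe of Opa1 and Dlg1 lies between the single-gene probes of Opa1.

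The promoters of the 3 genes are shown as a description, so that a reader can see which of 4 promoter motifs each of them holds. Each is the 250 bases before the transcript start in RefSeq (GRCm38.p6, all on the + strand): chr16:29579084-29579333 for Opa1, chr3:32529232-32529481 for Mfn1 and chr6:40325228-40325477 for Agk. Capitals mark matches on either strand to GCATGCGC, the core of the NRF1 site, CCGGAAG, an ETS site as bound by GABPA, CACGTG, the E-box, and CCAAT.
Opa1: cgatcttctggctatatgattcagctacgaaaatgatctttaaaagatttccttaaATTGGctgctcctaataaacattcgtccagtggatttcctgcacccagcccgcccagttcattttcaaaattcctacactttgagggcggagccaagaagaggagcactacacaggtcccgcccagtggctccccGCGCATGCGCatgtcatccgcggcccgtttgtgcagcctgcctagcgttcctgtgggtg
Mfn1: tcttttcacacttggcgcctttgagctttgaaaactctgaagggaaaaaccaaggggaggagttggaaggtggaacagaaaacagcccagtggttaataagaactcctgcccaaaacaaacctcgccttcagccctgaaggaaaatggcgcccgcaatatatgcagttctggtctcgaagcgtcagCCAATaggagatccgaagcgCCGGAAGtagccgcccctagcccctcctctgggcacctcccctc
Agk: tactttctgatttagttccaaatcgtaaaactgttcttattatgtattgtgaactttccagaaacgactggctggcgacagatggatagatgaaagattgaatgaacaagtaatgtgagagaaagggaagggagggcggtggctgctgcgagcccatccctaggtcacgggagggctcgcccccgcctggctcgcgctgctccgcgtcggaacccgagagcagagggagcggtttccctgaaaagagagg
Opa1 holds GCATGCGC on both strands, overlapping, from 59 and 57 bases before the start, a motif found in 2.26% of 32851 promoters of this length. Mfn1 holds CCGGAAG from 44 bases before the start (6.91% of promoters) and CCAAT from 64 bases before it. Opa1 holds CCAAT too, 194 bases before the start on the other strand (33.8% of promoters). Agk has none of the 4 motifs in its window, and CACGTG (6.02% of promoters) is in none of the 3. The matches describe the letters only. Of the factors named here, Nrf1 averaged -0.05 ± 0.17, from probes at -0.25 and 0.15, and Gabpa averaged 0.21 ± 0.34. Gabpb1, the partner of GABPA, averaged -0.23 ± 0.18 (SD, n = 3 pairs each). No factor of the E-box or of CCAAT is given, and a part of these factors in the ratios was not tested.

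Other genes of these pathways were taken from lists chosen with earlier results of these data known; 43 of the 187 listed symbols, which include older synonyms, had a probe of their own. Of these 43, 29 averaged below 0 and 14 above, with a median of -0.07. Without Opa1, Mfn1 and Agk it was 26 of 40 below 0 with a median of -0.06, and limma passed 0 of these 40 at an adjusted p under 0.05, while 49.9% of all 3089 named genes were below 0, with a median of 0.0006. Of those 40 genes, 9 were below 0 in all 3 pairs, as were 504 of all 3089 named genes (16.3%). The difference between these shares was not tested.

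Among the genes of fusion and its processing, Mfn2, the other mitofusin, averaged 0.12 ± 0.24 and was below 0 on 5 of 12 arrays. Yme1l1, a protease that cleaves Opa1, averaged 0.05 ± 0.19, from 3 probes between -0.31 and 0.42. Phb2, a prohibitin that scaffolds the inner membrane, averaged -0.40 ± 0.45, with -0.90 in pair 1 and -0.03 in pair 2. Spg7, a subunit of an inner membrane protease, averaged -0.06 ± 0.03 (SD, n = 3 pairs for each). In this list 4 of 6 measured genes were below 0, a count that includes Opa1 and Mfn1, which were chosen for lying there. Of the rest, Phb2 and Spg7 were below 0 and Mfn2 and Yme1l1 above, while 49.9% of all named genes were below 0.

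Of the genes that act in fission, 1 of 3 averaged below 0. This was Mtfr1, a mitochondrial fission regulator, at -0.45 ± 0.22, with -0.55, -0.60 and -0.21 in the 3 pairs. Inf2, a formin that builds actin at fission sites, averaged 0.44 ± 0.52, and Dnm2, a dynamin that cuts membranes, 0.08 ± 0.11 (SD, n = 3 pairs each). Of cristae organisation 2 genes were measured. Ghitm averaged -0.21 ± 0.42 and Letm1, an ion exchanger of the inner membrane, -0.08 ± 0.25, both with pair values on either side of 0.

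The other measured genes of the complex and kinase families of Agk lay nearer to 0. Timm22, the channel of the TIM22 complex, averaged -0.07 ± 0.20, from probes at -0.23 and 0.09. Timm9, a chaperone that carries substrates to it, averaged -0.17 ± 0.52, and Slc25a3, the phosphate carrier, -0.05 ± 0.22. Among the kinases of diacylglycerol and sphingoid lipids, Dgke lay at -0.27 ± 0.36, Sphk2 at 0.11 ± 0.40, Cerk at 0.11 ± 0.14 and Dgka at 0.22 ± 0.24. The difference between these genes and Agk was not tested.

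Around phosphatidic acid, one of the products of Agk, the measured genes differed in sign. Agpat1, an acyltransferase that makes phosphatidic acid from lysophosphatidic acid, averaged 0.56 ± 0.05 and was above 0 on 11 of 12 arrays (limma, adjusted p = 0.625). Lpin1, a phosphatase that removes phosphatidic acid, averaged 0.30 ± 0.26. Prelid1 and Prelid3b, which carry phospholipids between the mitochondrial membranes, averaged -0.18 ± 0.51 and -0.19 ± 0.41, and their partner Triap1 -0.14 ± 0.18 (SD, n = 3 pairs each). The other import genes lay close to 0: Timm50 at -0.12 ± 0.25, Hspa9 at -0.03 ± 0.21, Dnajc15 at -0.02 ± 0.41, Timm17b at 0.03 ± 0.26, Tomm40 at 0.03 ± 0.33 and Tomm70a at 0.21 ± 0.30.

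In the list of mitophagy and transport along microtubules all 6 measured genes averaged below 0, and 3 of them were below 0 in all 3 pairs. Of all named genes, 49.9% averaged below 0 and 16.3% were below 0 in all 3 pairs. The difference was not tested. Vcp, an ATPase that extracts mitofusins from the outer membrane, lay at -0.57 ± 0.48 and Rhot1, the GTPase that ties mitochondria to motors, at -0.50 ± 0.36. The probes of Rhot1 disagreed, at -1.03 and 0.02. Pink1, the kinase that marks damaged mitochondria, lay at -0.12 ± 0.29 and the motor adaptor Trak1 at -0.04 ± 0.24. The receptor Bnip3l lay at -0.08 ± 0.31, from 3 probes between -0.44 and 0.35. The sixth gene is Phb2, given above. Of the genes for mitochondrial DNA, 6 of 8 averaged below 0, against the same 49.9% of all named genes and with no test. Among them were Tfam, which packs mitochondrial DNA, at -0.54 ± 0.44 and Tfb1m, a methyltransferase of mitochondrial ribosomal RNA, at -0.44 ± 0.40. Mgme1 lay at -0.18 ± 0.10, Ssbp1 at -0.05 ± 0.21 and Mterf3 at 0.11 ± 0.31 (SD, n = 3 pairs for each). Outside Opa1, Mfn1 and Agk, the lowest adjusted p over the 40 other genes was 0.625 (limma).

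**Figure D4:**
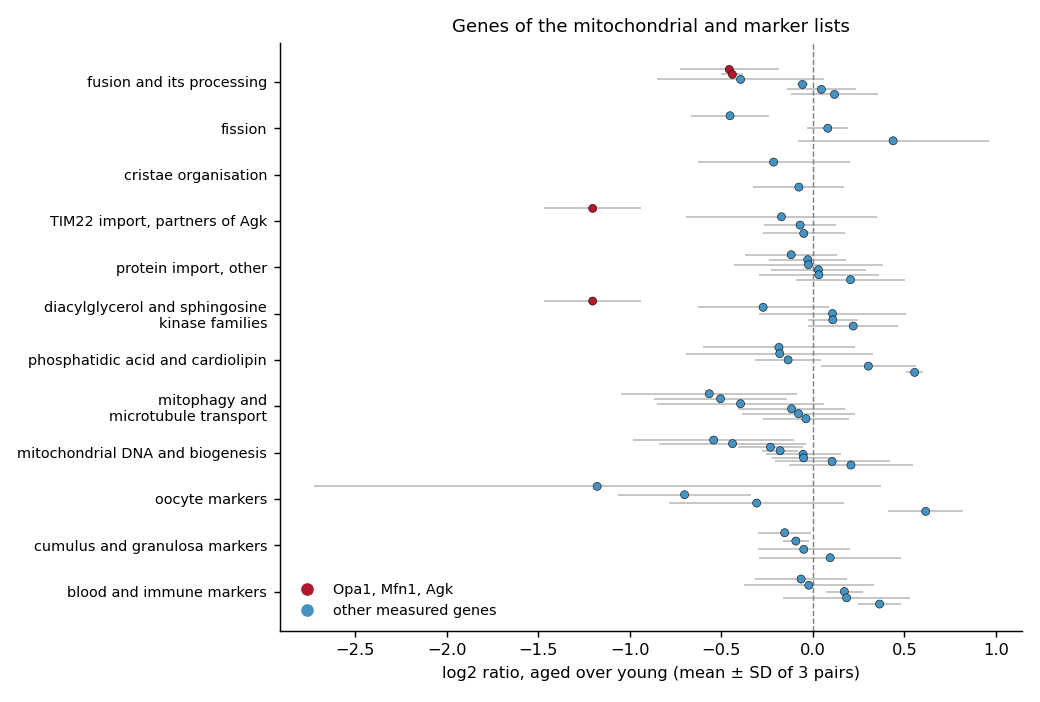
Mean log2 ratio of aged over young with SD over 3 pairs (horizontal axis) for every measured gene of the mitochondrial and marker lists (vertical axis); Opa1, Mfn1 and Agk are red. Agk at -1.20 lies below every other mitochondrial gene shown, the next being Vcp at -0.57.

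Markers of other cells that could come with oocytes were set beside these values. The 4 measured cumulus and granulosa markers (Inhbb, Fst, Cyp11a1 and Gja1) averaged between -0.15 and 0.09, with list means of -0.03, -0.24 and 0.12 in the 3 pairs. The 5 blood and immune markers (Ptprc, Csf1r, H2-Aa, H2-Ab1 and C1qb) averaged between -0.06 and 0.36, with list means of 0.18, 0.13 and 0.07. Of the 4 oocyte markers, Kit, a receptor in oocyte growth, lay at -0.95, -0.87 and -0.29 in the 3 pairs and below 0 on 12 of 12 arrays, as Agk and Opa1 did. Zp2, of the zona pellucida, lay at -1.69, 0.56 and -2.41, Bmp15, an oocyte growth factor, at -0.85, 0.06 and -0.14, and Dppa3, a maternal-effect protein, at 0.85, 0.47 and 0.53. The part of oocyte content or of other cells in the ratios was not tested.

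Over the 12 arrays Opa1 and Agk correlated at r = 0.84, Opa1 and Mfn1 at r = 0.45, and Mfn1 and Agk at r = 0.21. These describe 12 arrays that share 3 pairs of RNA and their dyes. All 3 genes had their lowest value on the same array, the one of widest spread (pair 1, labelling 2, aged RNA in Cy3). Agk lay there at -2.55, Mfn1 at -1.56 and probe 11427 of Opa1 at -1.48. No correlation was taken without that array. Its part in these r values and in the likenesses below was not tested. Among 3025 other named genes with 12 values, those most like Agk were Twf1 (r = 0.94), Gnpnat1 (0.94) and Mtfr1 (0.93), the fission regulator given above. Those most like Opa1 were Armc1 (0.95), Orc4 (0.88) and Anxa11 (0.87), and those most like Mfn1 were Nol8 (0.94), Bclaf1 (0.94) and Polr2m (0.92). A like course over the arrays did not mean a like ratio: the means of Orc4, Bclaf1 and Twf1 were -0.04, 0.06 and -0.13, and for Gnpnat1 and Armc1 both -0.39.

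Averaged over pairs and dye orientations, the labellings gave similar values. On single arrays they could lie far apart. In pair 1 with aged RNA in Cy3, labelling 1 and labelling 2 gave -0.20 and -2.55 for Agk and -0.43 and -1.56 for Mfn1. Probe 11427 of Opa1 lay there at -0.02 and -1.48. Labelling 1 and labelling 2 alone gave -1.06 and -1.35 for Agk, -0.40 and -0.48 for Opa1, and -0.43 and -0.48 for Mfn1. If the deposited values had already been turned to aged over young by the authors, the ratios would be 0.22 ± 0.11 for Agk, 0.02 ± 0.03 for Opa1 and -0.27 ± 0.45 for Mfn1 (SD, n = 3 pairs each), so Agk and Opa1 would lie above 0 and only Mfn1 below. Of 16 alternative settings, that reading among them, Agk and Opa1 were below 0 in 15 and Mfn1 in 16. The reading as Cy3 over Cy5, which would put all 3 genes above 0, was not among them. For these genes the median over single-gene probes could not differ from the mean. Keeping values on a limit or at 0 changed them only through the array medians. With aged RNA in Cy3, Mfn1 was below 0 on only 2 of 6 arrays.

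**Figure D5:**
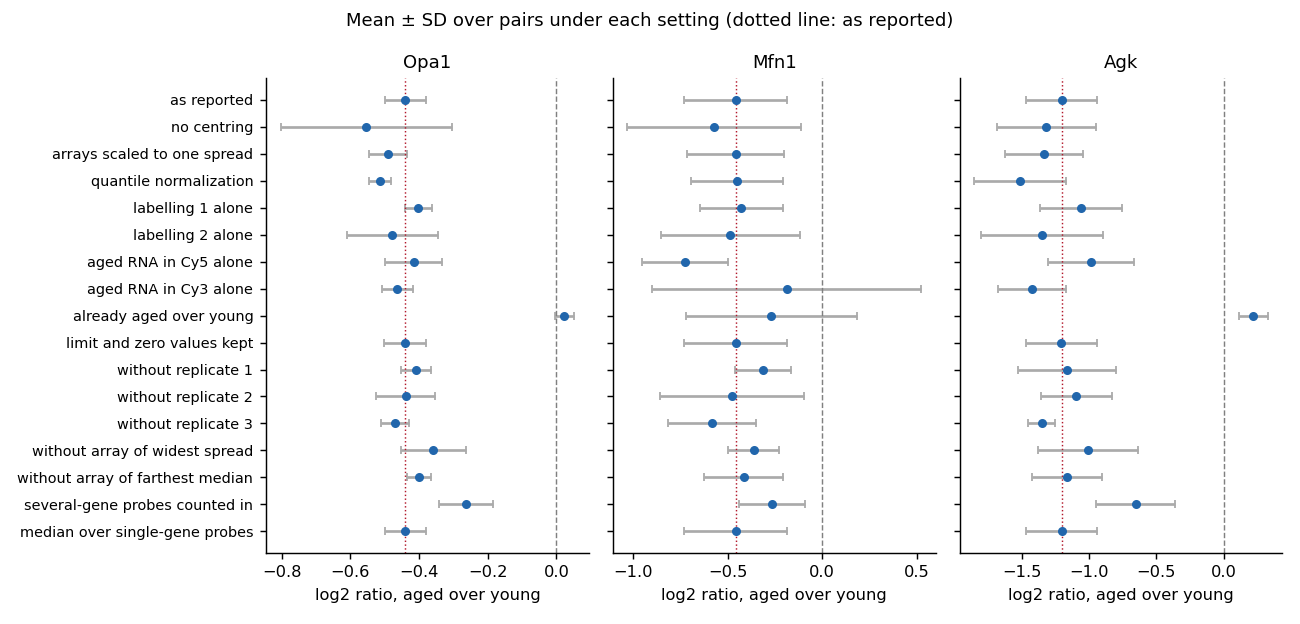
Mean ± SD over pairs of the log2 ratio of aged over young (horizontal axis) under each setting (vertical axis) for Opa1, Mfn1 and Agk; the dotted line is the value as reported. The setting that takes the values as already aged over young puts Agk at 0.22 and Opa1 at 0.02, and for Mfn1 the dye orientations used alone lie farthest apart, at -0.73 and -0.19.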

How the data were processed

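The deposited values were read as log10 ratios (the authors state no scale), which run between -2 and 2; the dye on top, scanner, background correction, normalization and centring are stated by no label or header used here. Spot signals were not used, and n is 3 pairs of RNA. Values exactly on a limit (1215) or exactly 0 (513) were treated as missing, 0.638% of all; none were of the 10 probes described. Log2 values were centred on each array's median and turned by the dyes. Labellings were averaged within each dye orientation, then both orientations equally. Single-gene probes (4262, naming 3089 genes) were averaged per gene; 6822 probes listed several genes and 11491 none. RefSeq matched 4247 of the 4262 by gene ID, and 0 symbols changed.

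The 3 pair values were tested against 0 with limma 3.58.1 (two-sided, Benjamini-Hochberg adjustment over 21370 rows with values in all 3 pairs) in R 4.3.3, and the script was checked on simulated data. The part that keeps its sign under the swap was tested likewise per probe. The genes, lists and tests were chosen with earlier results of these data known. Named genes were all listed genes with a probe, and the 3 of highest Pearson r to each member. Leaving out the array of widest spread or of farthest median was added after seeing the data.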

Additional observations from a re-analysis of the deposited data

How the results depend on the processing

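Across the 16 alternatives Agk ran from -1.51 to 0.22, Opa1 from -0.55 to 0.02 and Mfn1 from -0.73 to -0.19. The reading as Cy3 over Cy5 was not among them. Taking the values as already aged over young put Agk at 0.22 and Opa1 at 0.023, with 5566 rows at an unadjusted p under 0.05 against 1402. Without centring Opa1 was -0.55, the median of named genes -0.11, and 13 rows passed. Quantile normalization gave -0.51 for Opa1 and -1.51 for Agk. Counting probes of several genes gave -0.26 for Opa1 and -0.65 for Agk. Without the array of widest spread Opa1 was -0.36. With aged RNA in Cy5 or Cy3 alone 3188 or 3588 rows had an unadjusted p under 0.05. A constant dye effect is not cancelled in such a ratio, and its part in these counts was not tested. Leaving out 1 pair gave 928 (without pair 3) to 1778 rows at an unadjusted p under 0.05. At an adjusted p under 0.05 it gave 0 to 43, the 43 without pair 1 (35 higher and 8 lower). The dye test then passed 0 to 1 of the 10 probes, the 1 without pair 1, where 5062 of all 22554 probes passed. A fit of the 12 single arrays, with a random block for the pair, gave 2639 rows at an unadjusted and 227 at an adjusted p under 0.05 (limma). Agk was among the 227, and in no other setting run across all rows did any of the 3 genes pass. Nothing is read from this. The fit counts arrays that share their RNAs, and the genes were chosen on this contrast. With 1 value per pair, limma passed 0 of 21370 rows. The cause of the changes across settings was not tested. With no signal or background values, what depth limits is unknown.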
